A study of Mus musculus with 9 samples.

Results

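Fibroblast regions that persisted until day 12 of reprogramming were stretches of open chromatin of mouse embryonic fibroblasts (MEFs) that were still found in SSEA-1-positive cells at day 12 and were no longer found at day 16 or in iPSCs. They were selected by presence and absence of called regions: overlapping regions of the 7 time-course libraries were merged into 204843 union regions on chromosomes 1 to 19, and a member was called in D0, D3, D6T- and D12S+ but not in D16S+ or iPSCs, while D9T- was free. This gave 7632 members, which is 3.73% of all union regions, 10.1% of the 75753 that were open in D0, and 28.4% of the 26832 that were open in D0, D3, D6T- and D12S+. Presence in those libraries is what chose the members and is therefore no result. D9T-, both knockdown libraries, the position in the genome and the DNA sequence were not used.

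The cells were MEFs of E13.5 embryos that carry an IRES-EGFP cassette behind the Oct4 (Pou5f1) coding sequence, infected with pMXs retroviruses for Oct4, Sox2, Klf4 and c-Myc and kept without feeder cells. D0 cells had not been reprogrammed and D3 cells were unsorted at day 3, D6T- and D9T- were Thy-1-negative cells of days 6 and 9, D12S+ and D16S+ were SSEA-1-positive cells of days 12 and 16, and iPSCs were fully reprogrammed cells. D6_siNT and D6_siH3.3 were day 6 cells, Thy-1-negative by their labels (the study's supplement lists no sorting for them), that had also received non-targeting siRNA or siRNA against histone H3.3. Each condition had 1 library (no replicates), so every difference below compares libraries and carries no test. A sorted population is a mixture of cells, in which a smaller share of cells with an open region and a weaker opening in each cell cannot be told apart.

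ATAC-Seq cuts open chromatin with the Tn5 transposase, so a pile of sequenced ends marks a promoter, enhancer or insulator that is free of nucleosomes. In fibroblasts many distal enhancers are bound by AP-1, a dimer of Fos and Jun family proteins that recognises a short palindromic motif, together with TEAD and RUNX factors. During reprogramming such somatic enhancers close while those of pluripotency genes open, and Thy-1 (a fibroblast surface protein) is lost before SSEA-1 (a surface glycan of pluripotent cells) appears.

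The sequences that carry the main feature of the members are those around their summits. The 8 windows below lie on the strongest summits of the 8 distal members with the highest level at D12S+, with 100 bp to either side, on the plus strand of mm9. Capitals mark matches to the AP-1 motif TGACTCA or its reverse complement TGAGTCA, to the TEAD motif GGAATGT and to the RUNX motif TGTGGTT, both strands.
near 4922501C03Rik (chr9:87359061-87359261): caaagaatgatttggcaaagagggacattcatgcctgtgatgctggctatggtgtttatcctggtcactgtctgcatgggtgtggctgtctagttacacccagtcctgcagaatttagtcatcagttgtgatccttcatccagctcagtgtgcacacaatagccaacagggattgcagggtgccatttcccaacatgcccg
Smyd3 intron (chr1:180972188-180972388): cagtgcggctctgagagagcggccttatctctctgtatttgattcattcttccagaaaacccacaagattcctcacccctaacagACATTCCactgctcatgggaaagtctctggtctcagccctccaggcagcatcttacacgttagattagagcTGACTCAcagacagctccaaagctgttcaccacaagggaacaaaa
near Sp8 (chr12:120053147-120053347): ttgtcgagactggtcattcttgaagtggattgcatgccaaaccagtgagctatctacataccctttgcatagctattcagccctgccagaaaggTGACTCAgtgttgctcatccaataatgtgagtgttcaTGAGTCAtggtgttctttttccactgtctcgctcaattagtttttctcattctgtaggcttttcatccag
near B3gat1 (chr9:26326368-26326568): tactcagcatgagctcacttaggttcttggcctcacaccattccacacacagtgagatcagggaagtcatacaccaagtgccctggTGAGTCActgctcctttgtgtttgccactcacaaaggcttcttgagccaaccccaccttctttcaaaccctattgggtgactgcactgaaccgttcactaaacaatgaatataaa
near Psd3 (chr8:70681180-70681380): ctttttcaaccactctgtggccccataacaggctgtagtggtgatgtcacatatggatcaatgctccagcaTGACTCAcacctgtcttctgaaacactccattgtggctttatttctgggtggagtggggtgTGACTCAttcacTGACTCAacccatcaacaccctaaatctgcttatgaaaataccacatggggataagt
Jak1 intron (chr4:100875343-100875543): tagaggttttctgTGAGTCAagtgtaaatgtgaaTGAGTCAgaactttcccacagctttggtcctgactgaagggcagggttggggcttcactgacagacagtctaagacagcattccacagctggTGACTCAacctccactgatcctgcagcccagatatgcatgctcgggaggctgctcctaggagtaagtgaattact
Eps8 intron (chr6:137530940-137531140): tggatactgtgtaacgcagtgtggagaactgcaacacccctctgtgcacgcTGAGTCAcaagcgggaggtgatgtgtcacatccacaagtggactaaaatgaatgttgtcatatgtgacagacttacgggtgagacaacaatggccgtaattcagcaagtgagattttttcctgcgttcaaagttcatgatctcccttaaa
near Pmch (chr10:87471561-87471761): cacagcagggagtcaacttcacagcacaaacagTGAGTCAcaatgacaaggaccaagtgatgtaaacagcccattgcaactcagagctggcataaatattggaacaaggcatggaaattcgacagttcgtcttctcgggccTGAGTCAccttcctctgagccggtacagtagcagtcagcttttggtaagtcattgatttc
AP-1 matches were in 7 of these 8 windows, and 4 windows held more than 1. The window near 4922501C03Rik, which had the highest D12S+ level of all members, held none of the 3 motifs. The window in the Smyd3 intron held a TEAD match beside its AP-1 match, and no RUNX match was in any of the 8.

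Over all members, the AP-1 motif was the most frequent of the 11 motifs searched. It lay within 100 bp of the summit in 4067 of 7632 members, which is 53.3% (95% Wilson interval 52.2 to 54.4), against 19.6% of all union regions. In windows of the same length 1000 bp away from the members' summits it was in 3.50%, so the share at the summit was 15.2-fold that of the flanks. Such intervals hold the sampling of regions only.

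Other regions of the starting cells held AP-1 less often than the members did. Regions of D0, D3 and D6T- that were gone by D12S+ (15196 regions, lost before D12S+ below) held the motif in 45.7%. Those seen until D16S+ and not in iPSCs (1579 regions) held it in 26.1%, and those kept in D12S+, D16S+ and iPSCs (16191 regions) in 6.93%. Members thus lay above all 3 other classes, with intervals that did not overlap. Base composition differed as well, with a median GC content of 48.8% in members and 62.2% in kept regions. Within windows of 40 to 50% GC the AP-1 share was 55.2% in members, 47.3% in regions lost before D12S+, 28.5% in those seen until D16S+ and 16.4% in kept regions, which is the same order.

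Strong members held the motif more often than weak ones. Among members with a D6T- summit level under 1 CPM (the tags that cover the summit, scaled to a library of 1000000 tags) 23.2% held AP-1, and this was 43.3% from 1 to 2 CPM, 62.9% from 2 to 4 CPM and 72.1% at 4 CPM or over. At a like D6T- level the regions lost before D12S+ were not below the members: they held it in 34.6%, 51.1% and 65.0% of the first 3 ranges. The higher share of members over the lost class therefore moved with their strength, since 55.3% of members and 10.4% of the lost class had 2 CPM or more at D6T-. Kept regions stayed between 5.02% and 8.53% in all 4 ranges, and all union regions had 25.2%, 33.6%, 34.6% and 17.8%. The matches sat close to the summit, at a median of 32 bp, and 10.4% of members held 2 or more of them, against 1.87% of all union regions.

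**Figure D1:**
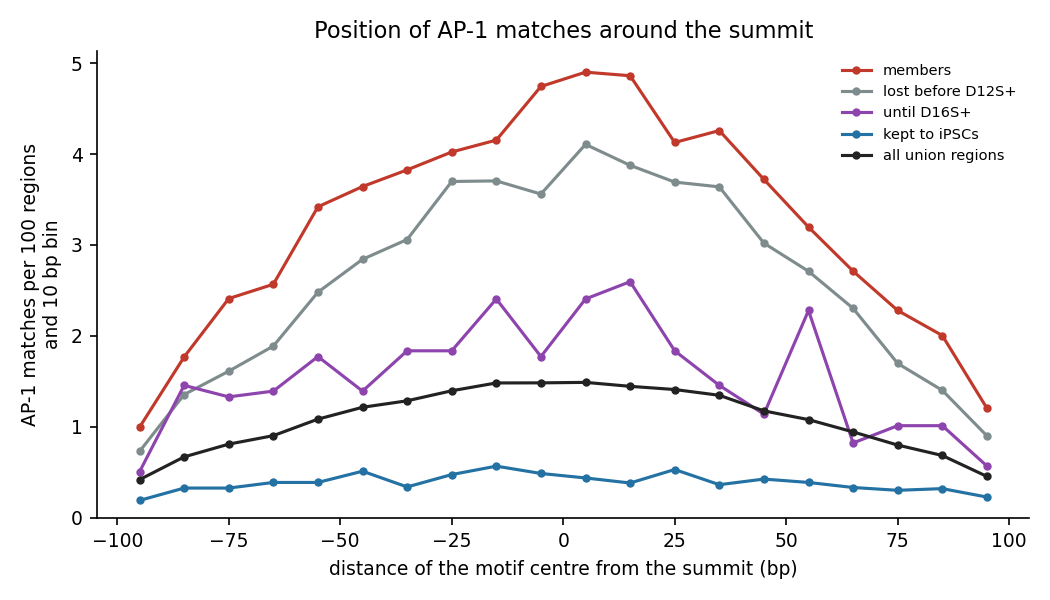
AP-1 matches per 100 regions in bins of 10 bp, by distance of the motif centre from the summit, for the members, the 3 other classes and all union regions. The members' curve is the highest in every bin and peaks near the summit, while that of kept regions stays near the base line.

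The other fibroblast motifs were rarer. TEAD matches were in 8.56% of members, 2.80% of their flanks and 4.98% of all union regions. RUNX matches were in 8.94% of members, 4.99% of their flanks and 5.91% of all union regions. For both, the lost class was slightly higher (9.56% and 10.5%) and the kept class lower (2.74% and 2.69%). The C/EBP motif TTGNGCAA was in 3.49% of members and 2.54% of all union regions.

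Motifs of promoters, insulators and pluripotency factors lay near or below the level of all union regions. ETS matches (CCGGAAG), common in housekeeping promoters, were in 1.28% of members and 10.7% of kept regions. The core motif of the insulator protein CTCF was in 1.90% of members, 2.29% of all union regions and 10.2% of the regions seen until D16S+, which was its highest share. KLF matches (GGGNGTGG) were in 8.44% of members and 10.1% of all union regions. The octamer ATGCAAAT of Oct4 was in 1.38% and 1.69%, and the SOX motif CATTGTT in 4.04% and 4.02%. The forkhead motif TGTTTAC was in 2.61% and 2.49%, and the NFI palindrome was in 2 members. A match is only a run of letters, and none of the spelled motifs contains another.

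**Figure D2:**
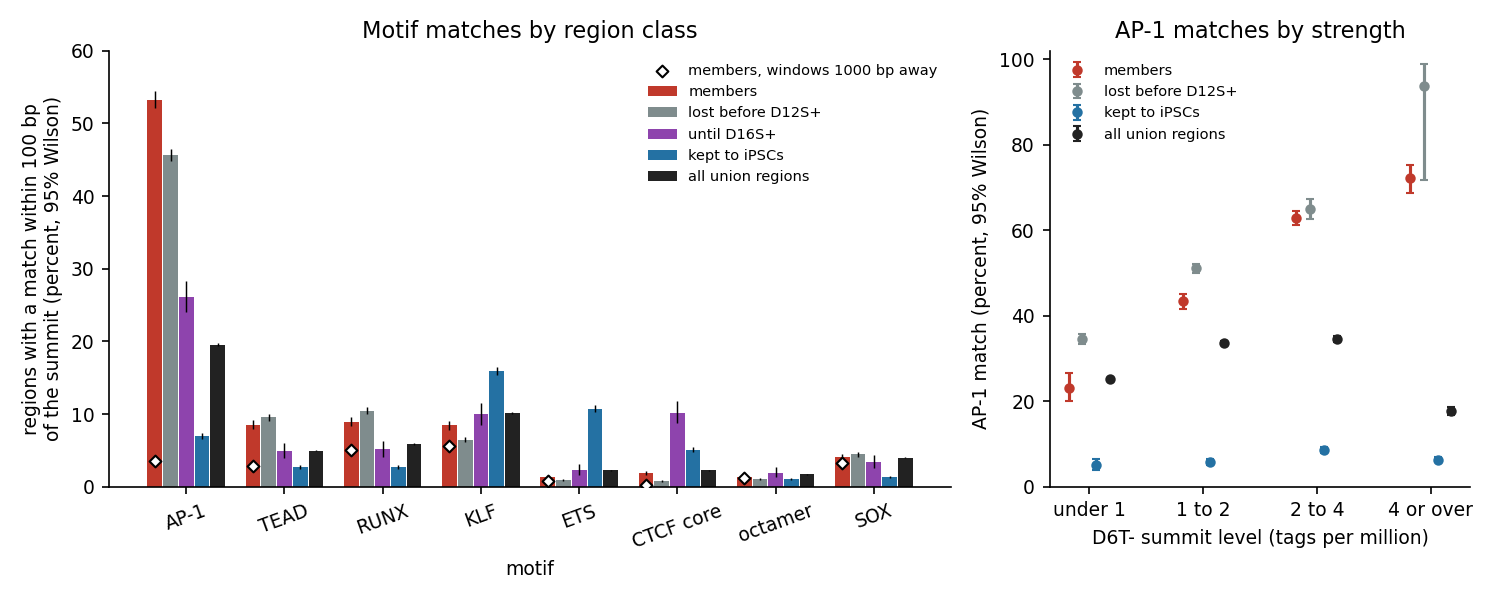
Left, share of regions with a match within 100 bp of the summit for 8 motifs (bars with 95% Wilson intervals) in members, the other classes and all union regions, with the members' flanking windows as diamonds. Right, the AP-1 share by D6T- summit level: it rises from 23.2% to 72.1% in members and stays under 10% in kept regions.

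Members were distal. Of the 7632, 643 (8.43%) had their midpoint in a promoter (3 kb upstream of a transcription start site), 3657 (47.9%) in a gene body and 3332 (43.7%) in intergenic sequence. Introns held 94.0% of those in gene bodies. All union regions were in promoters in 13.6%, and kept regions in 43.5%. The median distance to the nearest start of a protein-coding transcript was 25788 bp. Over 10 kb from one were 71.6% of members, 61.8% of all union regions and 21.7% of kept regions. Regions lost before D12S+ were slightly more distal than members, with 74.6% over 10 kb away and 7.21% in promoters. The AP-1 share changed little with position, at 47.3% in promoter members, 53.3% in gene bodies and 54.4% in intergenic sequence. Their median width was 633 bp, against 365 bp over all union regions, 477 bp in the lost class, 691 bp in regions seen until D16S+ and 1132 bp in kept regions. The strongest summits of D0, D3, D6T- and D12S+ lay within 200 bp of each other in 90.0% of members and in 82.9% of all regions open in those libraries.

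The summit level differed between libraries and between members, which within D6T- ran from 0.374 to 11.2 CPM. The members' median was 0.820 CPM in D0, 1.12 in D3, 2.15 in D6T- and 0.738 in D12S+. In tags these were 26, 34, 46 and 13, so the D12S+ values rest on few tags. The middle 50% of members lay between 0.625 and 0.908 CPM at D12S+, and the highest was at 3.01 CPM. D6T- was the highest of those 4 libraries in 94.7% of members by CPM, but D0 was the highest in 77.8% once each library was divided by its median over the 13097 regions open in all 7. Of all regions open in the 4 libraries, D6T- was the highest in 90.0% by CPM and D0 in 54.5% after that scaling.

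From D6T- to D12S+ the members stood lower than other regions on both scales. The median ratio of D12S+ to D6T- was 0.355 in members against 0.627 in all regions called in both. For ratios the scaling divided each library by its median over the 12060 regions open in all 9 libraries. After it the ratio was 0.577 against 1.02. By CPM 5919 members (77.6%) were at least 2-fold lower at D12S+, where 32.6% of all regions called in both were, and 0 members were at least 2-fold higher, where 1.50% were. The rule asks for loss after D12S+ and used both libraries, so this is a description. Against D0 the scale decides the direction for all regions: the median of D12S+ over D0 was 0.936 in members and 1.59 in all regions by CPM, and 0.394 and 0.668 after scaling.

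**Figure D3:**
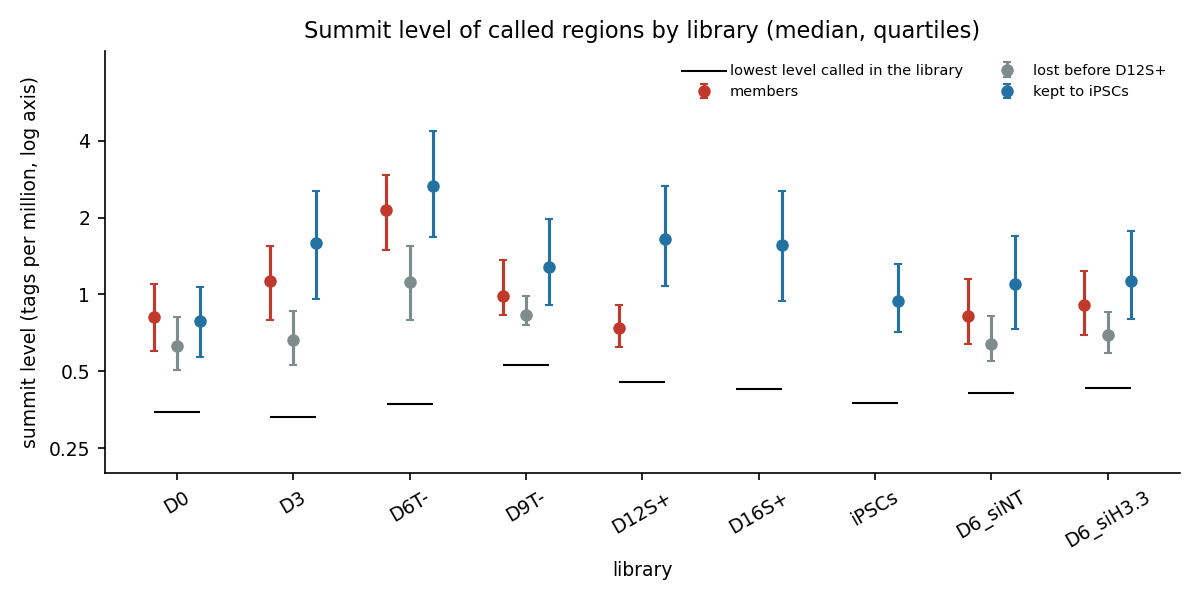
Median summit level (points) and quartiles (bars) in each library on a log axis, over the regions of each class that were called there, with the lowest level called in that library as a black line. Members have 2.15 CPM at D6T- and 0.738 CPM at D12S+, close above the lowest level called there, and no value in D16S+ and iPSCs.

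The edge of the rule lies at these low counts. The lowest level called was 0.454 CPM (8 tags) in D12S+, 0.425 CPM (9 tags) in D16S+ and 0.376 CPM (10 tags) in iPSCs. The members' D12S+ level was a median of 1.74-fold over the lowest level called in D16S+. It was at least 2-fold over it in 2625 members (34.4%), at least 3-fold in 413 and at least 4-fold in 91. Just inside the rule were 184 members with 8 tags at D12S+ and 430 with 9 tags. Just outside were 41 regions that 9 tags in D16S+ alone kept out and 54 that 10 tags in iPSCs alone kept out. A region that was open at day 16 but below the lowest level called there could not be told from a closed one.

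D9T- lies inside the interval over which members persisted but was not used to choose them. It was called in 4121 members, which is 54.0% (95% Wilson interval 52.9 to 55.1), against 16.1% of all union regions. Members had to be called in 4 libraries, while any call made a union region, so the 16.1% is not a like background. The share was 12.9% in regions lost before D12S+, 56.9% in those seen until D16S+ and 80.9% in kept regions. Members were thus below both classes that were also open at D12S+. This library was the shallowest (13213117 tags), and a call there followed the level: 37.4% of members under 0.6 CPM at D12S+ had a D9T- region, 45.9% from 0.6 to 0.8, 69.2% from 0.8 to 1.2 and 93.3% at 1.2 CPM or over. In the same ranges kept regions had 27.0%, 41.0%, 60.2% and 94.5%, so that members were above kept regions of like D12S+ level in the first 3 ranges. By D6T- level the order was the opposite: under 1 CPM, from 1 to 2, from 2 to 4 and at 4 CPM or over, D9T- was called in 10.8%, 30.2%, 72.0% and 97.4% of members and in 25.0%, 56.8%, 93.8% and 99.9% of kept regions. All union regions in the same D6T- ranges had 5.77%, 31.7%, 81.3% and 98.9% in D9T-. Members were thus above them under 1 CPM, near them from 1 to 2 CPM and below them from 2 CPM up. By D12S+ level members were above all union regions in every range. In members called in D9T-, the level there was a median of 0.396 of that at D6T- by CPM and 0.993 after scaling.

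The knockdown control offers another day 6 library, with the doubt about its sorting given above. D6_siNT had a region in 5306 members, which is 69.5% (68.5 to 70.5), against 20.1% of all union regions. D6_siH3.3 had one in 5477, which is 71.8% (70.7 to 72.8), against 20.4%. As for D9T-, all union regions are not a like background for members. Regions lost before D12S+ were called in 25.9% and 27.4%, those seen until D16S+ in 64.9% and 64.7%, and kept regions in 87.0% and 85.9%. Again the call followed the level: by D6T- level, D6_siNT was called in 16.8% of members under 1 CPM, 49.2% from 1 to 2, 89.3% from 2 to 4 and 99.9% at 4 CPM or over. At like levels the lost class had 6.87%, 31.2% and 77.8% in the first 3 ranges, and kept regions had 36.3%, 71.3% and 97.6%. All union regions in the 4 ranges had 8.76%, 45.9%, 91.7% and 99.3% in D6_siNT, so from 1 CPM up members were near them. In D6_siH3.3 members had 17.6%, 54.0%, 90.2% and 99.6%, and all union regions 9.05%, 47.3%, 91.7% and 99.3%. All 3 libraries that the rule did not use were called in 3581 members (46.9%), and none of them in 1379 (18.1%).

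**Figure D4:**
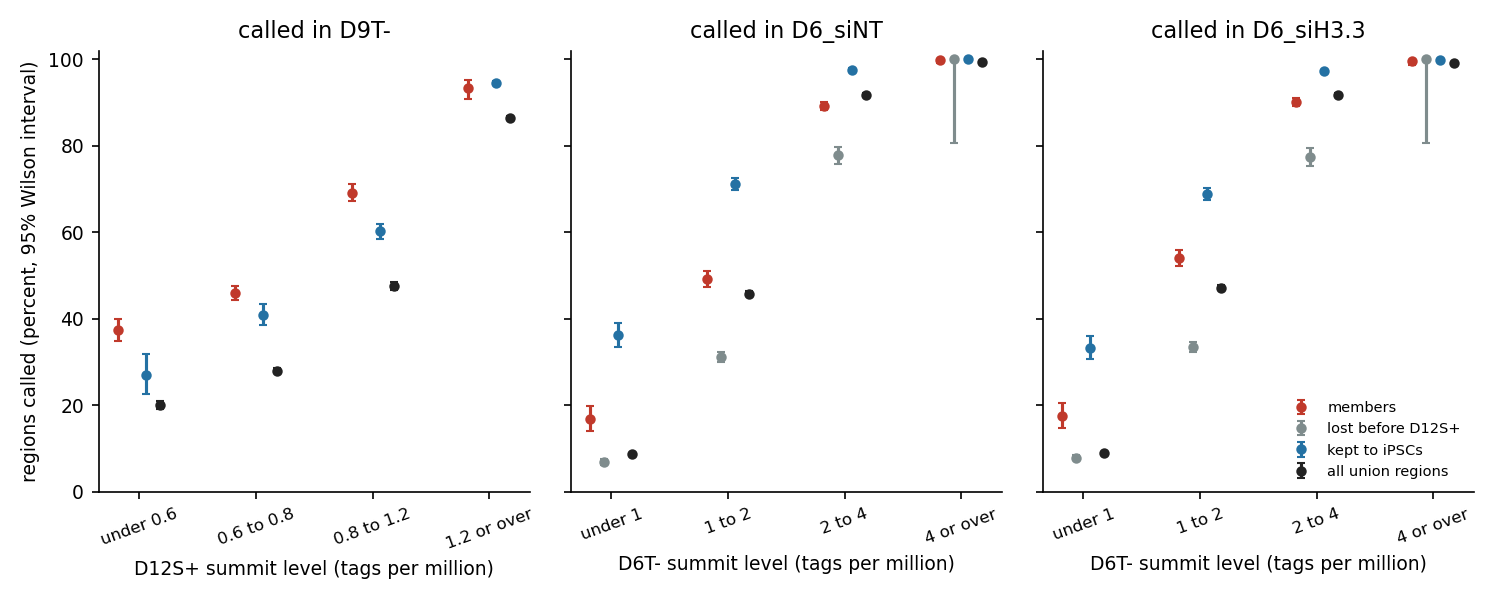
Share of regions called (points, 95% Wilson intervals) in D9T-, D6_siNT and D6_siH3.3, each over ranges of the summit level in D12S+ or D6T-. By D12S+ level members lie above kept regions for D9T- in the first 3 ranges (by D6T- level, not plotted, they lie below), and by D6T- level they lie between the lost and the kept regions for both siRNA libraries in those ranges.

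The comparison of D6_siH3.3 with D6_siNT asks how knockdown of the histone variant H3.3, which is deposited outside replication at active chromatin, relates to accessibility. The study describes this knockdown as transient and made at the beginning of reprogramming, before the cells were collected at day 6. ATAC-Seq does not measure the knockdown itself. Both libraries were called in 4694 members (61.5%), D6_siNT alone in 612 (8.02%) and D6_siH3.3 alone in 783 (10.3%). Of all union regions these were 15.8%, 4.30% and 4.66%. Over those called in both, the median ratio of D6_siH3.3 to D6_siNT was 1.08 in members and 1.06 in all regions by CPM, and 1.04 and 1.02 after division by each library's median over the 12060 regions open in all 9. At least 1.5-fold higher in D6_siH3.3 were 571 members (12.2%) against 9.59% of all regions, and at least 1.5-fold lower were 254 (5.41%) against 5.17%. After scaling these shares were 9.82% and 6.95% in members and 7.59% and 6.96% in all regions. The members' shares were thus near those of all regions on both scales.

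The extremes of that ratio rested on few tags. The member at the histone genes H2afj and Hist4h4 (mm9 chr6:136753330-136753821) had 14 tags in D6_siNT and 41 in D6_siH3.3, a ratio of 3.42 in CPM (exact 95% interval 1.82 to 6.79, counting error only). Members in exons of Fam168a and Gcfc1, in a Sash1 intron and 125512 bp from Trat1 had ratios of 3.37, 2.92, 3.27 and 2.92. At the low end the member of the 3230401D17Rik promoter had 29 tags in D6_siNT and 9 in D6_siH3.3, a ratio of 0.362 (0.151 to 0.786). Those in Ston2 (endocytic adaptor) and Sdpr (a caveolar coat protein) had 0.389 each, as did one 37262 bp from Snapc3, and the one near the chemokine gene Cxcl1 had 0.401. These 10 are the ends of a list of 4694 and were picked for their ratio, so no test bears on them.

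Members with and without an AP-1 match had the same median at D12S+ and differed before it. The 4067 with a match had a median of 0.738 CPM at D12S+, and so had the 3565 without. Upper quartiles there were 0.908 and 0.852 CPM. The rule asks for a call at D12S+ and none at D16S+, so the like D12S+ levels are no result about AP-1. At D6T- the medians of members with and without a match were 2.38 and 1.78 CPM. The first were called in D9T- in 61.0% and the second in 46.1%, and in D6_siNT in 78.2% and 59.6%. The split was of the same direction over all union regions, with 19.7% and 15.2% in D9T- and 27.9% and 18.2% in D6_siNT. The members' median of D12S+ over D6T- was 0.322 with and 0.405 without a match, and that of all regions called in both was 0.380 and 0.675. The ratio of D6_siH3.3 to D6_siNT was 1.08 and 1.07.

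The strongest members at D12S+ were intergenic or intronic. The highest lay 208625 bp from the nearest start, that of 4922501C03Rik (mm9 chr9:87358468-87359525), with 2.46 CPM in D0, 5.49 in D3, 11.2 in D6T-, 4.01 in D9T- and 3.01 in D12S+ (53 tags, exact Poisson interval 2.25 to 3.94). D6_siNT had 4.50 and D6_siH3.3 had 3.59 CPM there. By CPM D6T- was its highest library, and its D12S+ level was 7.08-fold over the lowest level called in D16S+.

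In an intron of Smyd3, a lysine methyltransferase gene, the member (chr1:180971414-180972935) had 2.33, 4.10, 8.74, 3.03 and 2.78 CPM in D0, D3, D6T-, D9T- and D12S+. The member 31696 bp from Sp8, a zinc finger factor of limb outgrowth (chr12:120052733-120053480), had 2.52, 3.54, 7.43, 4.39 and 2.73 CPM in the same order. That near B3gat1, which makes the HNK-1 glycan (chr9:26326063-26328026), had 1.61, 3.11, 7.62, 4.09 and 2.67 CPM. By CPM all 3 were highest in D6T- and were above D0 at D12S+, and after scaling all 3 were below D0 at D12S+.

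Those near Psd3 (an Arf6 exchange factor) and in introns of Jak1 (a kinase of cytokine receptors) and Eps8 (an actin regulator that binds the EGF receptor) had 2.55, 2.38 and 2.38 CPM at D12S+. Jak1 stood out in D9T-, where it had 1.59 CPM against 3.18 for both others. Near Pmch (the melanin-concentrating hormone precursor), in an intron of Stau2 (an RNA-binding protein) and near D1Pas1 (an RNA helicase) the D12S+ levels were 2.27, 2.21 and 2.16 CPM. Of these 10 members 9 held AP-1, and none was in a promoter.

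Genes were counted as holding a member when it overlapped the span from 3 kb upstream to the end of a protein-coding gene. This was so for 4069 members and 2827 genes, 15.9% of the 17826 genes with a union region, and 316 genes held 3 or more. Fgfr2 led with 23 members of 396 regions and Gm20388 followed with 19 of 1286, but their annotated models span 3009069 and 4434882 bp and take in other genes. The 3 strongest Fgfr2 members were nearest to Chst15, Btbd16 and Htra1.

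Next came Camta1 (a calmodulin-binding transcription activator) with 11 of 163 regions, and Rbms3 (an RNA-binding protein) with 9 of 89. Both are long genes, of 802353 and 1057168 bp, and the ranking by number of members was not adjusted for length. Ptprm (a receptor tyrosine phosphatase of cell contacts), Slit3 (a secreted guidance cue), Auts2 and 4933407C03Rik held 8 each, of 69, 77, 104 and 61. Syn3, within which the Timp3 gene lies, held 7 of 60. Dlgap2, 2010111I01Rik and Arfip1 also held 7 each but fell outside the 10 genes named. Some genes with fewer members were denser than those named, such as Ptpre with 6 of 23. The densest of these 10 genes was Ptpn14, a phosphatase that restrains the coactivator YAP: 7 of its 39 union regions, and of the 9 that were open in D0, were members, 0 were lost before D12S+ and 1 was kept.

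At Ptpn14 the strongest member (chr1:191690818-191691816) had 0.883, 0.728, 2.62, 2.19 and 1.36 CPM in D0, D3, D6T-, D9T- and D12S+. The one in its promoter (chr1:191608306-191609188) had 0.504, 1.29, 2.15, 2.35 and 1.25 CPM. D12S+ was above D0 in both by CPM, and after scaling only in the promoter. The Ptpn14 and Smyd2 stretch held 5 members within 22673 bp, the longest row of members at gaps of up to 10 kb. Rows of 4 lay at 4831426I19Rik, near Kcna5, at Narg2 and over the chemokine genes Ccl2 and Ccl7, and 6422 of the members stood alone.

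Promoter members were fewer. Of 643 in promoters, 502 were upstream of a transcript of a protein-coding gene, which can start inside the gene, and the strongest were at Gramd1b (a sterol transfer protein), Smad4 (the common mediator of TGF-beta signals), Prkg2 (a cGMP-dependent kinase), Arhgap17 and Eps8, with 1.76, 1.70, 1.65, 1.65 and 1.59 CPM at D12S+. Frmd4a, Prl2c3 and Ankk1 had 1.59 CPM each. Gpld1 and Fkbp9 had 1.53 each, as had Slc25a29. The Gramd1b region (chr9:40156150-40156927) had 0.599, 2.28, 6.03, 2.50 and 1.76 CPM in D0, D3, D6T-, D9T- and D12S+, and 2.11 and 3.80 CPM in D6_siNT and D6_siH3.3. That of Ankk1 differed, with its highest level in D3 (2.15 CPM) and 2.06 CPM in D6T-.

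Gene lists show where members lay among fibroblast and other genes, and 3.41% of all union regions at protein-coding genes were members. Fibroblast markers had 14 members among 217 regions, which is 6.45% (3.88 to 10.5), at 8 of 20 genes. These were S100a4, Ddr2, Fstl1, Mmp2, Cd44, Fbln1, Cdh2 and Pdgfra, and not Thy1, Vim, Fn1 or the other markers listed. More of the 217 regions, 24 (11.1%), were lost before D12S+ than were members, and of all union regions 7.42% were lost before D12S+. Ddr2, a collagen receptor, held 4 of 26 regions and another 4 were lost before D12S+. Its strongest member (chr1:171988040-171988645) had 0.725, 0.926, 2.24 and 0.852 CPM in D0, D3, D6T- and D12S+ and was not called in D9T-. The member upstream of S100a4, a calcium-binding protein of motile cells (chr3:90405212-90406036), had 0.441, 0.595, 1.59, 0.833 and 0.965 CPM in D0, D3, D6T-, D9T- and D12S+. The markers' members were weak at D12S+, with a median of 0.596 CPM against 0.738 over all members.

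The RUNX genes had the highest share of any list, with 9 members among 89 regions, which is 10.1% (5.41 to 18.1). Runx2, the master factor of bone, held 5, Runx1 held 3 and their partner Cbfb held 1, while Runx3 held 0. The strongest Runx2 member (chr17:44637093-44637961, in an intron) had 2.68, 2.28, 4.58, 0.984 and 1.36 CPM in D0, D3, D6T-, D9T- and D12S+. That of Cbfb (chr8:107710145-107710956, in an intron) had 1.83, 2.94, 4.72, 1.59 and 1.36 CPM. That of Runx1 (chr16:92609446-92610336) was weaker, with 0.725, 0.827, 2.76, 0.984 and 0.908 CPM. Another 10 regions of the list (11.2%) were lost before D12S+, against 7.42% of all union regions, and 3 (3.37%) were kept, against 7.90%. The list was thus above all union regions in lost regions as well. Of its 39 regions open in D0, 23.1% were members, below the 42.9% of the 7 at haematopoietic markers.

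**Figure D5:**
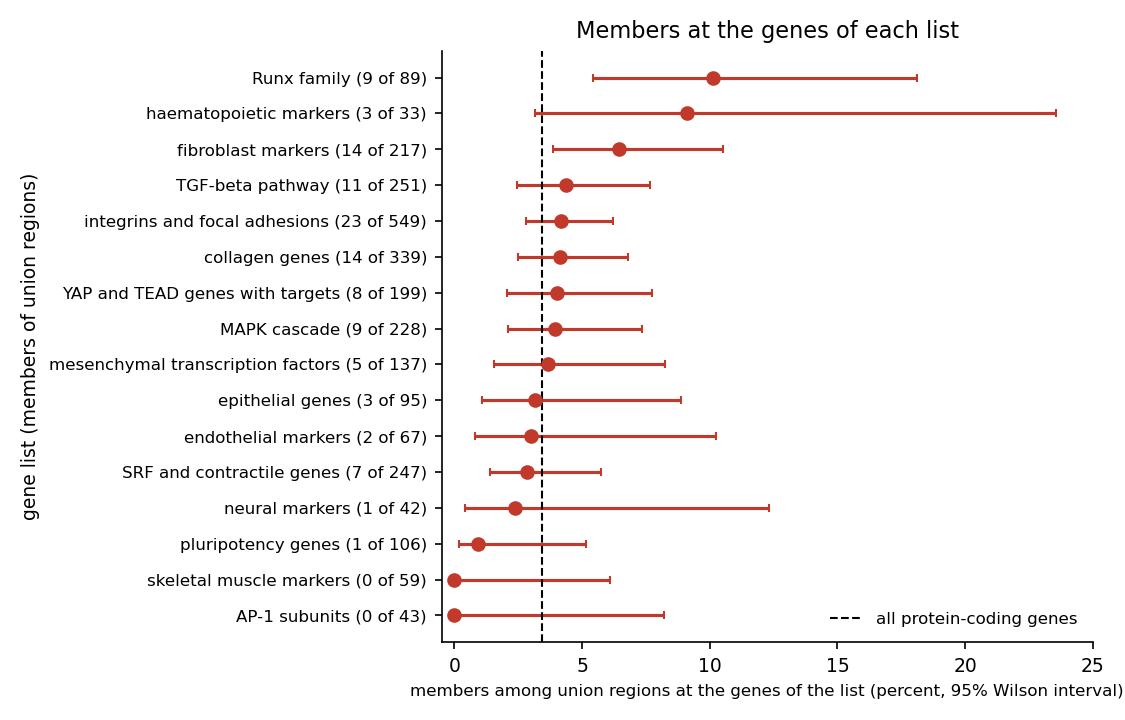
Share of the union regions at the genes of each list that were members (points, 95% Wilson intervals), with the share over all protein-coding genes as a dashed line. RUNX genes and fibroblast markers lie above the line with their whole interval, and the AP-1 subunit and skeletal muscle genes hold 0 members.

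Genes of the matrix and of adhesion lay near the background. Collagen genes had 14 members of 339 regions (4.13%) at 9 of 20 genes. Those of Col15a1 (chr4:47323347-47324168) and Col27a1 (chr4:62984366-62985224) both had 1.14 CPM at D12S+, after 4.77 and 4.35 CPM at D6T-, and Col6a3 had 0.965 CPM. Integrin and focal adhesion genes had 23 of 549 (4.19%) at 13 of 28 genes. Tns1, Tns3 (tensins, which tie integrins to actin) and Vcl (vinculin) were the strongest, with 1.48, 1.36 and 1.19 CPM at D12S+. Tns3 had 2.68, 4.20, 5.75 and 0.984 CPM in D0, D3, D6T- and D9T-, and so was strong before D12S+. In both lists more regions were lost before D12S+ than were members, 42 (12.4%) and 66 (12.0%). The same holds over all union regions, of which 7.42% were lost before D12S+ and 3.73% were members.

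Signalling lists were near the background too. TGF-beta pathway genes had 11 of 251 (4.38%) at 7 of 18 genes, among them all 3 receptor genes Tgfbr1, Tgfbr2 and Tgfbr3 and the transducers Smad3 and Smad4. The Smad4 member, in an intron near the 3′ end of the gene and upstream of an internal transcript start, had 1.58, 3.64, 7.29, 2.27 and 1.70 CPM in D0, D3, D6T-, D9T- and D12S+, and Tgfbr1 and Tgfbr3 had 1.19 and 1.14 CPM at D12S+. YAP and TEAD genes with targets had 8 of 199 (4.02%), led by Lats2 with 3 members, Vgll3 and Tead4. MAPK cascade genes had 9 of 228 (3.95%), among them at Map2k6 and Map3k5, and SRF and contractile genes had 7 of 247 (2.83%), among them at Myh9 and Mkl2. Mesenchymal transcription factors had 5 of 137 (3.65%), at Tcf4 (3), Twist2 and Zeb2.

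The genes that encode AP-1 itself, Fos, Jun and their relatives, held 0 members among 43 regions, which allows a share of up to 6.98% (3 counts of the total, with an upper Wilson limit of 8.20%). Of those regions, 11 (25.6%) were kept to iPSCs and 3 (6.98%) were lost before D12S+, against 7.90% and 7.42% of all union regions. Skeletal muscle markers held 0 of 59, which allows up to 5.08% by the same count (upper Wilson limit 6.11%). Pluripotency genes held 1 of 106, an intronic region of Tdgf1, the Nodal co-receptor gene, at 0.681 CPM in D12S+. Epithelial genes held 3 of 95 (Ocln, Krt19 and Grhl2), endothelial markers 2 of 67 (both at Cdh5), haematopoietic markers 3 of 33 (9.09%, 3.14 to 23.6, with 2 at Csf1r and 1 at Ptprc) and neural markers 1 of 42 (Gfap). On the same lists, open regions at fibroblast markers numbered 70 in D0, 141 in D3, 158 in D6T-, 53 in D12S+, 33 in D16S+ and 40 in iPSCs. At pluripotency genes they numbered 30 in D0, 35 in D12S+ and 60 in iPSCs. These counts were not divided by the union regions open in each library. Those were 75753 in D0, 99597 in D3, 126731 in D6T-, 51453 in D12S+, 45436 in D16S+ and 56042 in iPSCs. Union regions also fell from D0 to D12S+, so the lower count at fibroblast markers there is no check of the label. D0 also had 36 regions at endothelial and 7 at haematopoietic markers, whose part in the members was not tested.

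Across the libraries, tags ran from 13213117 (D9T-) to 31714845 (D0) and called regions from 36708 (D9T-) to 133132 (D6T-). Members made up 2.77% of union regions on chromosome 4, the lowest share, and 5.18% on chromosome 13, the highest.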

How the data were processed

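ATAC-Seq peak files of 9 libraries (mm9, 1 library per condition) were used. Per the file headers and the study's methods, the authors mapped reads with STAR, removed duplicates with Picard and called peaks per library with MACS2 2.1.0.20151222, without a control, at a q-value of 0.05. The deposited pileup signal counts the 200 bp extended tags that cover a summit, without scaling. The deposited fold enrichment is a ratio to a background that is uniform along the genome, and the deposited −log10 p and −log10 q values come from the same model. Only the signal set levels, and −log10 q ranked peaks in 1 alternative.

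Peaks of the time course were merged, presence was an overlap of at least 1 bp, and the level was the highest summit in tags per 1000000 tags (CPM). Libraries held 13213117 to 31714845 tags, so the lowest level called lay between 0.331 and 0.530 CPM. The second scale divided by the median over shared regions, those open in all 9 libraries for ratios and in all 7 for the highest library. Shares have 95% Wilson intervals and tag counts exact Poisson intervals, which cover counting only. No replicate exists and no test was run. Motifs were searched on the mm9 sequence on both strands with exact matches, genes came from GENCODE vM1, and scripts were tested on simulated data (Python 3.11.15 with pandas 2.3.3, NumPy 2.4.6 and SciPy 1.17.1, with samtools 1.23.1 and pysam 0.24.0 for sequences).

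Named were the 10 strongest members at D12S+, the first 10 genes by number of members (cut within a tie at 7) and the 10 strongest promoter genes. Also named were the 5 highest and 5 lowest siRNA ratios, the members of the gene lists (up to 3 strongest each), and 8 windows. A few list genes that this rule names are not reported here. List genes without a match were Ajuba, Flna, Nr0b1, Tfcp2l1, Gata1, Spi1, Map2 and Sox1. The members, lists and classes were chosen with earlier results of these data known. Alternatives varied the peak threshold, overlap, promoter width, motif window, scale and rule, and 2 of them were chosen after seeing the data. Sex chromosomes were left out.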

Additional observations from a re-analysis of the deposited data

How the results depend on the processing

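No paired analysis was possible because each condition had 1 library. Of the 93 values recomputed here, only the median ratios of D12S+ to D6T- and of D6_siH3.3 to D6_siNT could change direction, and neither did. The rest are counts and shares, which have no direction. The scale turned comparisons with D0. From CPM to scaled values, the members' median D3 over D0 went from 1.35 to 0.602 and D6T- over D0 from 2.51 to 0.650. D12S+ over D0 in all regions went from 1.59 to 0.668. Of the 93, 52 moved by less than their limits, among them all those under an overlap of 50%. The values that moved follow, as number of members, AP-1 share, shares called in D9T-, D6_siNT and D6_siH3.3, and median D12S+ over D6T-, where each moved. With the stronger 50% of peaks by −log10 q there were 3439 members, D9T- was called in 52.2%, D6_siNT in 66.1%, D6_siH3.3 in 65.8%, the ratio was 0.369 and promoters held 10.0%. With 36708 peaks in every library there were 3628 members, AP-1 was in 59.1%, the libraries were called in 75.4%, 81.4% and 82.2% and the ratio was 0.334. With a threshold of 0.530 CPM in all libraries AP-1 was in 55.3%, D9T- was called in 60.02%, D6_siH3.3 in 74.7% and the ratio was 0.347. Of the members under these 3 settings, 67.8%, 83.4% and 88.7% overlapped a reported one. Without members that had a D16S+ or iPSC region within 1000 bp, 45.2% were intergenic and 7.08% in promoters. With presence at D9T- required there were 4121 members, AP-1 was in 60.2%, the ratio was 0.304 and the libraries were called in 100% (by construction), 90.7% and 92.2%. Among the 2625 members at least 2-fold over the lowest D16S+ level, chosen after seeing the data, AP-1 was in 58.5% and the libraries were called in 73.9%, 86.1% and 86.9%. Leaving D6T- free, also chosen after seeing the data, gave 7677 members and moved nothing. Promoters of 1 kb upstream to 100 bp downstream gave 3.92% promoter, 50.4% gene body and 45.7% intergenic members, and protein-coding genes alone gave 6.58%, 46.3% and 47.2%. AP-1 was in 36.3% within 50 bp of the summit, 41.7% around the midpoint, 64.5% of whole regions (24.9% of all union regions) and 86.9% with 1 mismatch (60.6%). Scaling to regions shared by all 7 libraries gave a D12S+ over D6T- of 0.577, and scaling to those shared by all 9 gave a D6_siH3.3 over D6_siNT of 1.04.

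At a median of 13 tags the D12S+ level of most members was within 2-fold of the lowest level called in D16S+, and D9T- was the shallowest library. No alternative varied the depth of the reads. The causes of the movements were not tested.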
